A study of Homo sapiens with 5 samples.

Results

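The genes described here encode the enzymes that carry out and set the pace of the phosphofructokinase step of glycolysis. They were chosen by symbol: PFKL, PFKM and PFKP, which encode the subunits of 6-phosphofructo-1-kinase, and PFKFB1, PFKFB2, PFKFB3 and PFKFB4, which encode the bifunctional regulators of that enzyme. All 7 symbols had a row among the 26475 rows of the deposited count table. RNA was sequenced from MDA-MB-231, an established human breast cancer line of mesenchymal character, in 5 libraries of 1 per condition. The conditions were 20% O2 for 1 day, 1% O2 for 1 day (acute hypoxia), 20% O2 for 10 days, 1% O2 for 10 days (chronic hypoxia), and a return to 20% O2 for 10 days after the 10 days at 1% (reoxygenated). The labels name no genetic change or drug in any library, and do not say which libraries came from separate cultures. The series asks how short and long hypoxia differ and what reoxygenation does.

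Phosphofructokinase adds a second phosphate to fructose 6-phosphate and is the main committed and regulated step of glycolysis. The enzyme is a tetramer whose liver (PFKL), muscle (PFKM) and platelet (PFKP) subunits can mix, and most tissues express more than 1 of these genes. Fructose 2,6-bisphosphate is its strongest activator. The PFKFB proteins both make and break down this activator, and the balance of the kinase and phosphatase activities differs between them: PFKFB3 is mostly a kinase, whereas PFKFB4, first described in testis, has both activities. Both genes are known to be switched on by hypoxia-inducible factors (HIFs). These proteins build up when oxygen is scarce and bind DNA at a short core sequence, the hypoxia response element.

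The promoters of the 3 genes with the highest differences on day 1 at 1% O2, PFKFB4, PFKFB3 and PFKL, are shown to place that core sequence. Each window runs from 250 bases before to 50 bases after an annotated start (RefSeq, GRCh38.p14), is written 5′ to 3′ on the gene's strand, and has matches to ACGTG or GCGTG on either strand in capitals. PFKFB4 is on the minus strand at chr3:48556754-48557053, PFKL on the plus strand at chr21:44299803-44300102, and both PFKFB3 starts are on the plus strand, at chr10:6144671-6144970 (upstream) and chr10:6202682-6202981 (downstream).
PFKFB4: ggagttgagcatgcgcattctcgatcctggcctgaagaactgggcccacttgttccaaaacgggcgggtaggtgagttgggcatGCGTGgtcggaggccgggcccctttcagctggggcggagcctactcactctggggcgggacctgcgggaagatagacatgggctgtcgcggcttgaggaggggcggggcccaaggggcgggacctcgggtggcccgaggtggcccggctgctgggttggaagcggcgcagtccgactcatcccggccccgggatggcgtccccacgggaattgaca
PFKFB3 upstream start: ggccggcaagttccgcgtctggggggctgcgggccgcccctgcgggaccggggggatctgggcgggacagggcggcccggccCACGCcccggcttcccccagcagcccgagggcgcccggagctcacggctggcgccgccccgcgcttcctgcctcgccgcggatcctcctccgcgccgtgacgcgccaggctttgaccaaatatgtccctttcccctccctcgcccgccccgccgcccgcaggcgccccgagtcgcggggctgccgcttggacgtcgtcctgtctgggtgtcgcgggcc
PFKFB3 downstream start: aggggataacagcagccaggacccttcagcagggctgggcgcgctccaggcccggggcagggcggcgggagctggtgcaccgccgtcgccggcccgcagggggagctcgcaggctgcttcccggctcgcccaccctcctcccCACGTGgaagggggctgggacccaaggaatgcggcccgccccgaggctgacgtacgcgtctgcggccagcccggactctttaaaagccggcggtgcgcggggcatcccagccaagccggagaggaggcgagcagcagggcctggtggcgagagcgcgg
PFKL: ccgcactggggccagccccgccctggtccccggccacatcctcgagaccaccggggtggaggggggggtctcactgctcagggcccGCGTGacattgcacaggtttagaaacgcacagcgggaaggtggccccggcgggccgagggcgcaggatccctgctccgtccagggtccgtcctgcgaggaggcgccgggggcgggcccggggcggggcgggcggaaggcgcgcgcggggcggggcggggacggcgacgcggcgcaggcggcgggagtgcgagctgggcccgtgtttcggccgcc

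The PFKFB4 window held GCGTG once, 166 to 162 bases before the start (positions -166 to -162), and the PFKL window held it once at -164 to -160. The downstream PFKFB3 start had a palindrome at -108 to -103 that reads ACGTG on both strands, so its 2 matches overlap, and the upstream start had GCGTG on the reverse strand at -168 to -164. Of the other members, PFKM had a match in 2 of 7 windows, which overlap and hold the same single site, PFKP in 2 of 4 and PFKFB1 in 0 of 2. PFKFB2 was not among the windows used. A match to either core was present in 48.4% of all 35116 windows of this length and a match to ACGTG in 21.4%, so a match in a given window is common, and none of these letters shows binding.

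Estimated counts per library totalled 7719797 to 12544953. A gene was compared if it reached 1 CPM (counts per 1e+06 counts) in any library, which kept 13940 genes and 6 of the 7 members, all but PFKFB1. Levels below are CPM scaled with TMM factors, and each difference is a log2 difference between 2 libraries with an exact 95% interval of the count ratio. Such intervals cover counting error only, and with 1 library per condition no pairwise difference has a replicate check. By the labels, reoxygenated cells had 10 more days in culture than either day 10 library they are compared with. Oxygen history and time in culture cannot be told apart in those comparisons. The labels mention no molecular identifiers, and reads copied from 1 molecule would make the intervals too narrow. The size rule for calling a gene higher or lower was a log2 difference of at least 1 (2-fold). The markers of the line were present (VIM, CD44 and AXL at 558 to 2200 CPM), and ESR1 and PGR had at most 4 counts. CDH1 had at most 13 counts, while ERBB2 (42.5 to 52.9 CPM) and EPCAM (15.1 to 29 CPM) were detected. Of 6 markers of other cell types, 3 or 4 had at least 1 count in each library. Their summed level was 5.01 and 9.54 CPM at 20% O2, 7.41 and 17.8 CPM at 1% O2 (day 1 and day 10) and 11.1 CPM after reoxygenation. Most of this sum was COL1A1 (4.43 to 14.5 CPM). PTPRC had at most 28 counts, PECAM1 at most 15, ALB and CKM at most 1, and MYH7 was at 0 throughout. The part of these markers in the results was not tested. As in any bulk sample, fewer cells of a kind and less RNA per cell cannot be told apart.

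PFKFB4 was the member with the widest response to oxygen. The gene lies on chromosome 3 (48517684 to 48562015, minus strand, GRCh38). Its level was 11.84 CPM (123 counts) at 20% O2 and 40.48 CPM (437 counts) at 1% O2 on day 1, 14.35 CPM (176 counts) and 50.69 CPM (529 counts) on day 10, and 13.45 CPM (107 counts) after reoxygenation. Both 1% O2 libraries were far above the 3 libraries taken at 20% O2, and the latter had overlapping intervals (9.84 to 16.6 CPM in all). PFKFB4 was 3.38-fold higher after 1 day (log2 difference 1.76, interval 1.48 to 2.07), the 55th highest difference of 13940 genes. After 10 days it was 3.50-fold higher (1.81, 1.57 to 2.07), which ranked 690th because many more genes had wide differences then. Reoxygenated cells had 3.73-fold less than chronic hypoxic cells (−1.90, −2.23 to −1.61) and differed from the 20% O2 library of day 10 by −0.09 (−0.45 to 0.26). Some annotated PFKFB4 transcripts share 289 exonic bases with UCN2, the urocortin 2 gene, on the same strand, and 3.4% of the 50-base words sampled from PFKFB4 transcripts also occur in another gene, UCN2. UCN2 had 36, 80, 19, 69 and 32 counts in the order of libraries above. With both rows added together the differences were 1.63 after 1 day, 1.84 after 10 days and −1.70 on reoxygenation, and the sum stood 0.13 above the 20% O2 library of day 10 in reoxygenated cells, where PFKFB4 alone stood at −0.09.

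PFKFB3 moved the same way by less. It lies on chromosome 10 (6144934 to 6254644) and no sampled word of its transcripts was found in another gene. The level was 75.39 CPM at 20% O2 and 141.4 CPM at 1% O2 on day 1, 83.02 and 140.2 CPM on day 10, and 59.85 CPM after reoxygenation. The 1% O2 libraries were nearly equal (−0.01, −0.12 to 0.09, from day 1 to day 10), and the reoxygenated library was the lowest of the 5. PFKFB3 was 1.87-fold higher after 1 day (0.91, 0.78 to 1.03) and 1.69-fold higher after 10 days (0.75, 0.64 to 0.87), both short of the 2-fold rule. On reoxygenation it was 2.34-fold lower than in chronic hypoxia (−1.23, −1.38 to −1.08). It was also below the library kept at 20% O2 for 10 days, by −0.47 (−0.63 to −0.31), the 954th lowest of 13940 differences, in contrast to PFKFB4, whose interval there included 0. Whether these 2 genes differ in this respect was not tested, and neither was the part of the longer culture of reoxygenated cells.

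PFKFB2, which encodes the form best known from heart, differed little with oxygen. It lies on chromosome 1 (207034366 to 207081024) and had 42.56 and 40.85 CPM on day 1 and 47.79 and 51.65 CPM on day 10, at 20% and 1% O2 in each case, and 56.20 CPM after reoxygenation. Differences with oxygen were −0.06 (−0.25 to 0.13) on day 1 and 0.11 (−0.06 to 0.28) on day 10. At 1% O2, day 10 was above day 1 by 0.34 (0.15 to 0.52). YOD1, on the opposite strand inside PFKFB2, shares 315 exonic bases with it in some transcripts and was higher by 0.77 (0.65 to 0.90) after 10 days at 1% O2. With both rows added together the day 10 difference was 0.54. The strand setting was not given in the sources used here, so reads of these genes may not be separable. PFKFB1, the form of liver and skeletal muscle (chromosome X, 54932961 to 54998534), had 4 counts at 20% O2 on day 1, 0 at 1% O2 on day 1 and 1 in each other library. The 0 allows up to 3 counts, or 0.278 CPM, and no difference was detectable at this depth.

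**Figure D1:**
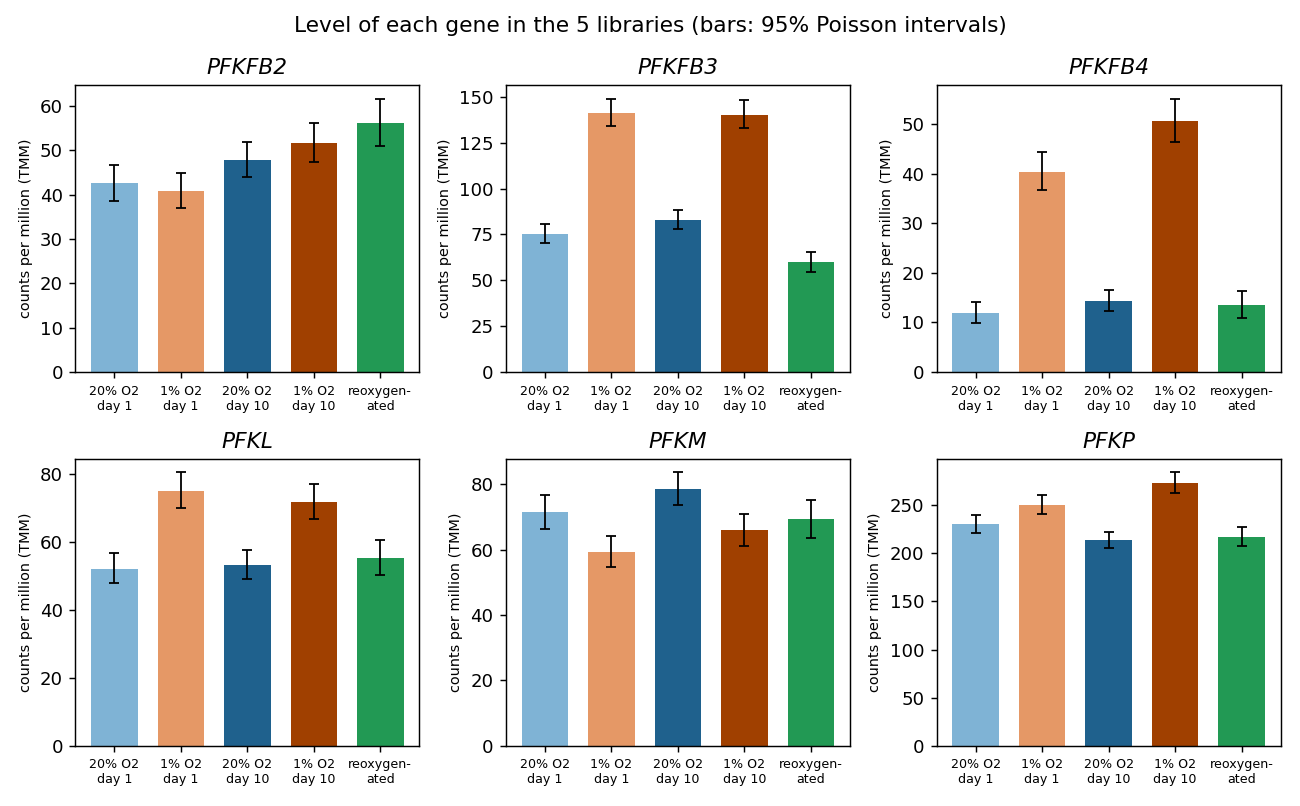
Level of the 6 compared genes in CPM (linear axes from 0) in each of the 5 libraries; bars are single libraries and error bars are 95% Poisson intervals of the count. PFKFB3 and PFKFB4 stand high in both 1% O2 libraries, at 140.2 to 141.4 and 40.48 to 50.69 CPM, PFKL shows the same order over a narrower range and PFKM the opposite one.

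Among the phosphofructokinase subunit genes, PFKL was higher in both 1% O2 libraries. PFKL (chromosome 21, 44300051 to 44327376) had 52.18 and 75.13 CPM on day 1 at 20% and 1% O2, 53.26 and 71.87 CPM on day 10, and 55.32 CPM after reoxygenation. The 3 libraries taken at 20% O2 lay within 3.14 CPM of each other and both 1% O2 libraries lay above them. The differences with oxygen were 0.52 (0.37 to 0.69) after 1 day and 0.43 (0.28 to 0.59) after 10 days, and reoxygenated cells were lower than chronic hypoxic cells by −0.38 (−0.55 to −0.21).

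PFKP (chromosome 10, 3066333 to 3137712) was the most abundant member in every library. Its level was 230.2 and 250.2 CPM on day 1, 213.3 and 273.3 CPM on day 10 and 216.8 CPM after reoxygenation. Oxygen made a difference of 0.12 (0.04 to 0.20) on day 1 and 0.36 (0.28 to 0.43) on day 10. With TMM factors PFKP was the member whose chronic minus acute interval excluded 0, at 0.24 (0.13 to 0.35). Library totals moved this contrast up by 0.13. On that scale PFKP was at 0.36 and PFKFB2 at 0.30, in place of 0.17 (−0.08 to 0.42), so which members stand clear of 0 depends on scaling. Coding transcripts of PFKP share 120 exonic bases with AL451164.3 on the same strand, and 2.5% of the words sampled from PFKP also occur there. The part of this overlap was not tested. Reoxygenated cells were 0.02 (−0.07 to 0.11) from the 20% O2 library of day 10.

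PFKM went the other way. The gene (chromosome 12, 48105139 to 48146404) had 71.34 and 59.29 CPM on day 1, 78.46 and 65.84 CPM on day 10 and 69.28 CPM after reoxygenation, so that both 1% O2 libraries were the lowest of the 5. It was lower at 1% O2 by −0.27 (−0.42 to −0.11) on day 1 and −0.25 (−0.40 to −0.11) on day 10. Scaled to library totals, the day 10 difference was −0.13, on a scale that moved the median of all genes up by 0.13 and PFKFB2 to 0.24. SENP1, on the opposite strand, shares 433 exonic bases with coding transcripts of PFKM and itself differed by 0.08 (−0.08 to 0.25) on day 1 and −0.98 (−1.18 to −0.80) on day 10. With both rows added together the differences were −0.10 and −0.54.

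**Figure D2:**
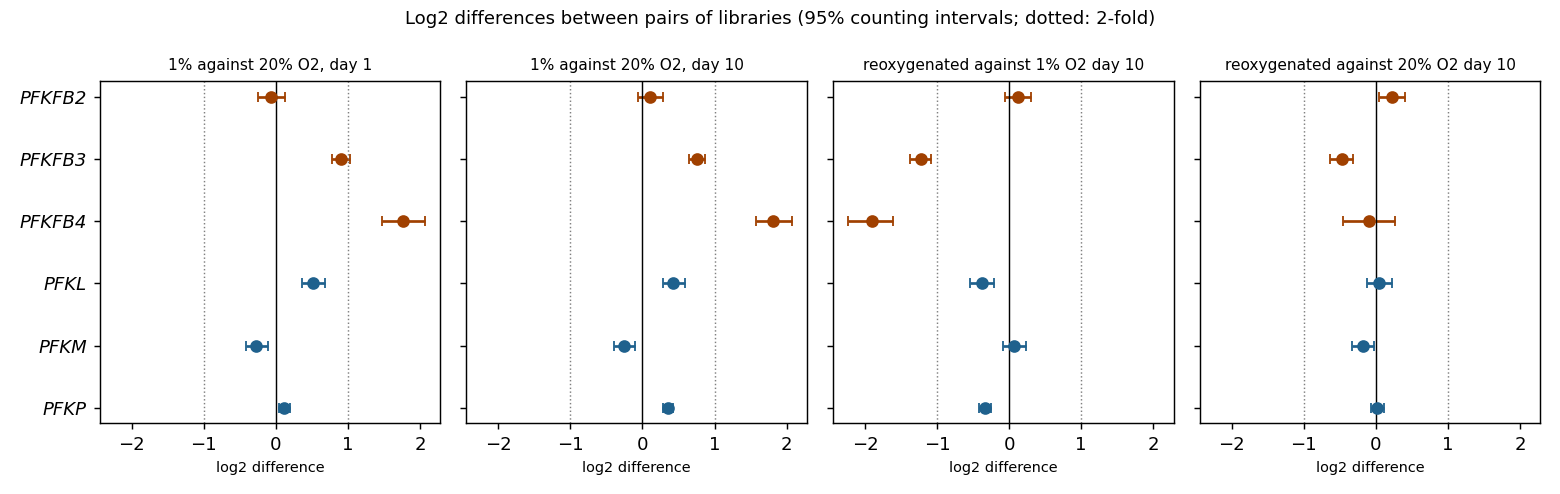
Log2 differences of the 6 compared genes between 4 pairs of libraries, with exact 95% intervals of the count ratio (counting error only); dotted lines mark 2-fold and the solid line 0. PFKFB4 lies past 2-fold at 1% O2 on both days and PFKFB3 and PFKFB4 on reoxygenation, where PFKFB3 also lies below the 20% O2 library of day 10.

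By the 2-fold rule, 1 of the 6 compared members, PFKFB4, was higher after 1 day at 1% O2, against 2.12% of all genes, and 1 of 6, again PFKFB4, after 10 days, against 14.4%. On reoxygenation 2 of 6, PFKFB3 and PFKFB4, were lower than in chronic hypoxia, against 11.2% of all genes. None of the 6 passed the rule in either direction between day 10 and day 1 at 1% O2 (20.8% of all genes), between day 10 and day 1 at 20% O2 (4.37%) or between reoxygenated cells and the 20% O2 library of day 10 (4.81%). In the chronic minus acute contrast 0 of 6 passed, against 18.7% of all genes, and the members' values ran from −0.15 (PFKFB3, −0.32 to 0.02) to 0.24 (PFKP), with PFKFB4 at 0.05 (−0.33 to 0.43). Several of these comparisons share a library, such as the 20% O2 library of day 10, and are not independent of each other. With so few members, these shares describe the genes and were not tested.

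The 4 libraries of day 1 and day 10 also allow a test, since each oxygen level was sampled on both days. In edgeR's quasi-likelihood test with the day as covariate and Benjamini-Hochberg adjustment over 13011 genes, PFKFB4 rose at 1% O2, with a log2 change of 1.81 ± 0.30 (SE) and an adjusted p of 0.000619, the 22nd lowest. It was the only one of 6 members tested to pass, against 0.899% of all genes that rose. PFKFB3 had a log2 change of 0.85 (SE 0.26) in this edgeR test and missed the threshold (adjusted p = 0.142). The others had edgeR log2 changes of 0.49 (PFKL, SE 0.26, adjusted p = 0.456), 0.26 (PFKP, adjusted p = 0.758), −0.24 (PFKM, adjusted p = 0.755) and 0.04 (PFKFB2, adjusted p = 0.964). All but PFKFB2 had the same sign on both days, and the share of all genes that did so was not counted. The model had 1 residual degree of freedom beside 29.8 prior ones shared across genes. With 1 library per condition, that residual is how far the oxygen difference changed between the days, mixed with any technical spread. The p-values therefore do not rest on replicates. The PFKFB4 call was lost in edgeR without the day term (adjusted p = 0.772), a fit with 0 calls over all genes. Its log2 change there was 1.82. The 3-library fits also had no day term and kept 1 library at 1 of the oxygen levels. In them PFKFB4 had a log2 change of 1.70 without the 20% O2 library of day 1 and 1.97 without that of day 10. Without the 1% O2 library of day 1 or of day 10 it was 2 or 1.62. PFKFB3 had 0.80, 0.92, 0.87 and 0.83 in the same order.

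Levels of different genes can be set side by side only after division by transcript length, here that of the principal GENCODE v29 transcript, 1929 to 7094 bases long. On this scale (CPM per kilobase) the order at 20% O2 on day 1 was PFKP at 86.7, PFKM at 22.1, PFKL at 17.9, PFKFB3 at 16.8, PFKFB2 at 6 and PFKFB4 at 3.30. PFKL and PFKFB3 did not differ beyond their counting intervals there, and PFKL and PFKM changed places when the union of all coding exons was used as length. At 1% O2 on day 10 the order was PFKP at 103, PFKFB3 at 31.3, PFKL at 24.7, PFKM at 20.4, PFKFB4 at 14.1 and PFKFB2 at 7.28 CPM per kilobase. PFKFB3 thus stood above PFKM in hypoxia and PFKFB4 above PFKFB2. With exon-union lengths PFKFB4 (14.1) was still above PFKFB2 (5.64), whereas PFKFB3 (25.8) and PFKL (24.3) no longer differed beyond counting error. The order at 1% O2 on day 1 was the same, with PFKFB3 at 31.5, PFKL at 25.8, PFKM at 18.4, PFKFB4 at 11.3 and PFKFB2 at 5.76. At 20% O2 on day 10 PFKM stood at 24.3, PFKFB3 at 18.5, PFKL at 18.3, PFKFB2 at 6.74 and PFKFB4 at 4, of which PFKFB3 and PFKL did not differ beyond counting error. After reoxygenation PFKM stood at 21.5, PFKL at 19, PFKFB3 at 13.4, PFKFB2 at 7.92 and PFKFB4 at 3.75, and PFKP was highest in these 3 libraries too (80.4 to 94.3).

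The make-up of each family shifted accordingly. PFKFB4 held 9.10% of PFKFB counts (exact interval 7.62 to 10.8) at 20% O2 and 18.2% (16.7 to 19.8) at 1% O2 on day 1, 9.88% (8.54 to 11.4) and 20.9% (19.3 to 22.5) on day 10, and 10.4% (8.58 to 12.4) after reoxygenation. PFKFB3 held 57.2% to 63.5% in the first 4 libraries and 46.2% (43.1 to 49.3) after reoxygenation, where PFKFB2 held 43.4% (40.3 to 46.4), an overlapping interval. Per transcript length PFKFB2 held 31.6% and PFKFB3 53.2% in that library. PFKP supplied most phosphofructokinase counts throughout, from 61.8% to 66.5%. PFKL held 14.8% and PFKM 20.2% at 20% O2 on day 1, and 19.5% and 15.4% at 1% O2. On day 10 the shares were 15.4% for PFKL and 22.7% for PFKM at 20% O2, and 17.5% and 16.0% at 1% O2. The intervals of the last pair overlap (16.4 to 18.7 and 14.9 to 17.2). Per exon union the share of PFKL was above that of PFKM in all 5 libraries, by the least at 20% O2 on day 10 (19.8% and 18.1%) and by the most at 1% O2 on day 1 (24.4% and 11.9%). With both families summed, PFKFB counts were higher at 1% O2 by 0.77 (0.68 to 0.87) and 0.74 (0.65 to 0.83) on the 2 days, and phosphofructokinase counts by 0.12 (0.06 to 0.19) and 0.25 (0.19 to 0.31). These sums were not divided by transcript length, so genes with long transcripts weigh more in them.

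**Figure D3:**
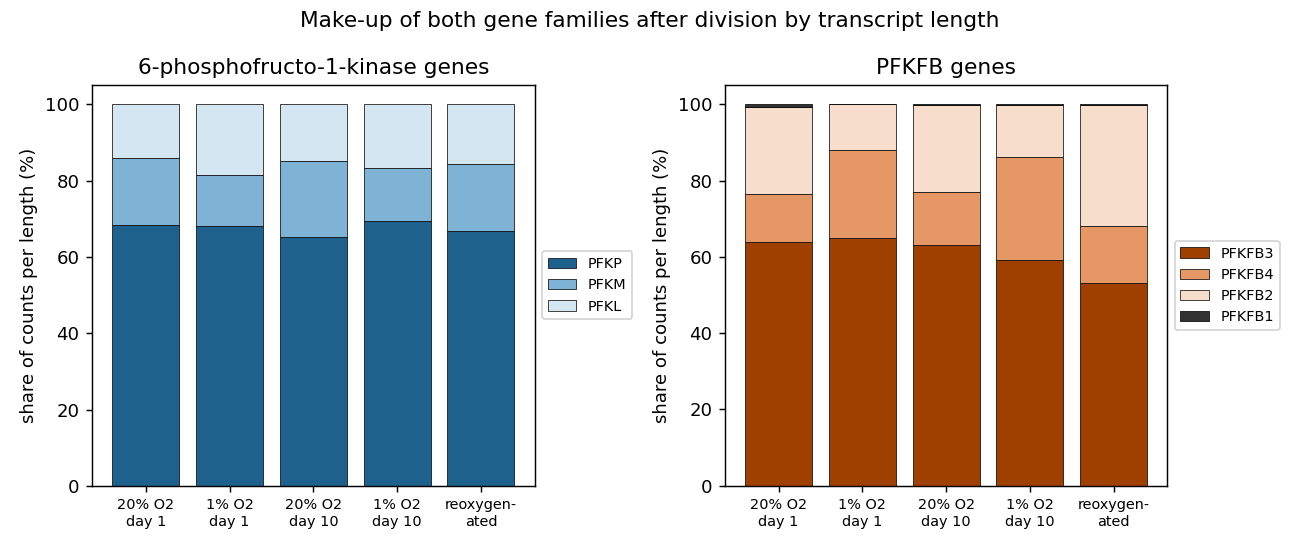
Stacked bars give each gene's share (%) of its family's counts after division by principal transcript length, 1 bar per library. PFKP makes up 65.3% to 69.5% of the phosphofructokinase bars, and the PFKFB4 segment widens from 12.5% and 13.7% at 20% O2 to 23.2% and 26.8% at 1% O2 and is 15% after reoxygenation.

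The rest of the pathway was read from lists chosen with earlier results of these data known. Of 23 genes of other glycolytic steps and of glucose and lactate transport, 19 were tested and 3 rose in the edgeR oxygen test over all genes: the aldolase gene ALDOC, the enolase gene ENO2 and the glucose transporter gene SLC2A3, against 0.899% of all genes. None fell in edgeR, DESeq2 or limma-voom, where 13, 2 and 22 of 13011 genes fell in all, so 0 of 19 is near the background share. In each of these tests 0 of the 19 had a negative change with an unadjusted p under 0.05. Over all genes, 12.2% had such a p in edgeR, with either sign. Over the 19 genes the median log2 difference was 0.57 after 1 day and 0.58 after 10 days (all genes 0 and 0.02), with 3 and 7 of 19 higher by 2-fold or more, against 2.12% and 14.4% of all genes. The largest chronic differences were those of SLC2A3 (4.32), ALDOC (1.98), ENO2 (1.61) and SLC16A1 (1.26, from 34 and 72 counts). The upstream hexokinase gene HK2, which traps glucose in the cell, had 205.6 and 373.8 CPM on day 1, 208.7 and 420.2 CPM on day 10 and 144.2 CPM after reoxygenation. Its difference of 0.86 (0.79 to 0.94) on day 1 stood near that of PFKFB3 (0.91, 0.78 to 1.03). On day 10 its 1.01 (0.94 to 1.08) was above that of PFKFB3 (0.75, 0.64 to 0.87). Like PFKFB3, HK2 was lower in reoxygenated cells than in the 20% O2 library of day 10, by −0.53 (−0.63 to −0.43). In that last comparison 16 of the 19 genes were below 0, with a median of −0.28. Over all genes the median was 0 and 50.2% were above 0. The longer culture of reoxygenated cells applies here too, and its part was not tested.

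The genes of enzymes that act against this step did not share 1 pattern. TIGAR, a phosphatase that breaks down fructose 2,6-bisphosphate, had 23.68 and 24.46 CPM on day 1, 26.83 and 15.24 CPM on day 10 and 26.40 CPM after reoxygenation. Its level was low in the 1% O2 library of day 10 alone: the difference was 0.05 (−0.21 to 0.30) after 1 day and −0.81 (−1.10 to −0.54) after 10 days, with a chronic minus acute value of −0.85 (−1.23 to −0.48). FBP1, the fructose-1,6-bisphosphatase of gluconeogenesis, had 45.92 and 36.78 CPM on day 1, 16.64 and 12.17 CPM on day 10 and 22.00 CPM after reoxygenation. It was lower on day 10 than on day 1 at 20% O2 (−1.45, −1.71 to −1.23) as well as at 1% O2 (−1.58, −1.90 to −1.30), and less so with oxygen (−0.32 and −0.44). Neither passed the edgeR oxygen test (adjusted p = 0.682 and 0.652), and FBP2 had at most 1 count.

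Of 16 genes for kinases and ligase adaptors that act on these proteins, 0 rose and 0 fell in edgeR's oxygen test, against 0.899% and 0.0999% of all genes. In that test 1 of the 16 had an unadjusted p under 0.05, against 12.2% of all genes tested. That gene was PRKAG1, a regulatory subunit of AMP-activated protein kinase, with a log2 change of −0.68 (SE 0.27, adjusted p = 0.269) in edgeR's test. DESeq2 called 0 and limma-voom 0 of the 16. Of all 13011 genes, 47 rose and 2 fell in DESeq2, and 202 rose and 22 fell in limma-voom. The list's medians were 0.06 after 1 day and −0.03 after 10 days; the widest chronic differences were those of PRKAG1 (−0.96), PRKACB (−0.65), PRKAB1 (−0.57) and PRKAB2 (0.55). Another list held 14 genes for HIF targets, HIF subunits and oxygen sensing. Of these, 7 rose in edgeR's test, against 0.899% of all genes. The subunit gene HIF1A was the 1 that fell (log2 change −1.79), against 0.0999% of all genes. The log2 changes of those that rose were 4.35 for NDRG1, 3.48 for ANGPTL4, 3.19 for CA9, 2.84 for EGLN3, 1.71 for VEGFA, 1.28 for KDM3A and 1.21 for BNIP3, beside 1.81 for PFKFB4.

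**Figure D4:**
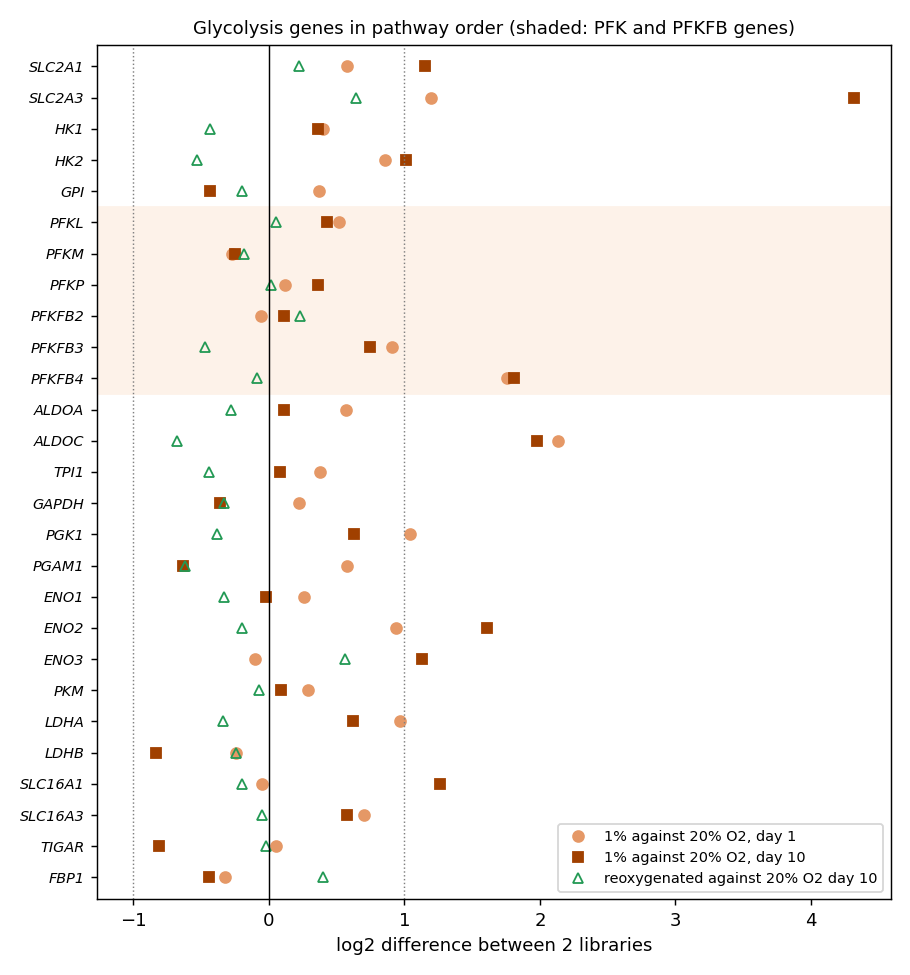
Log2 differences of glycolysis genes listed from glucose uptake to lactate export, with TIGAR and FBP1 at the foot; filled symbols compare 1% with 20% O2 on day 1 (circles) and day 10 (squares), open triangles compare reoxygenated cells with the 20% O2 library of day 10. Within the shaded phosphofructokinase and PFKFB rows the day 1 and day 10 symbols lie close together (at most 0.24 apart). Those of HK1 (chronic minus acute −0.04), SLC16A3 (−0.12), FBP1 (−0.13), HK2 (0.15), ALDOC (−0.15) and PKM (−0.20) do too. The other genes lie further apart, up to 3.12 for SLC2A3.

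Finally, genes of like pattern were sought for each member among the 11635 genes that reached 5 CPM in any library, by the root mean square difference of log2 levels centred over the 5 libraries. For PFKFB4 the nearest were RIMKLA (0.174), P4HA1 (0.181), which encodes a subunit of the collagen prolyl 4-hydroxylase, and DNAH11 (0.194), a dynein heavy chain gene. RIMKLA went from 7.22 to 27.33 CPM on day 1 and from 8.24 to 27.02 CPM on day 10 and stood at 6.29 CPM after reoxygenation. For PFKFB3 they were MAST4 (0.107), HK2 (0.108) and the fucosyltransferase gene FUT11 (0.129), and the day 1 and day 10 differences of FUT11 were 0.81 and 1.08. For PFKL they were BTD (0.034), SC5D (0.039) and CCDC107 (0.042), for PFKP COG4 (0.022), INPP5F (0.023) and ADGRF5 (0.026), for PFKM KIAA0226 (0.011) and RNF135 (0.024), and for PFKFB2 RECQL5 (0.015), ACBD3 (0.024) and CSF1 (0.036). Members with flat profiles have close neighbours by this measure because many genes are flat, and 5 libraries are few points for it.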

How the data were processed

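RNA of 5 MDA-MB-231 libraries, made with an mRNA kit per the labels' protocols, was sequenced by the authors. The submitters' processing notes name hg38, RSEM 1.2.15, Bowtie2 2.1.0 and edgeR, with annotation and strand setting not given in the sources used here. The authors deposited expected counts per gene symbol, not whole in 3.58% to 4.09% of values. Rows of overlapping or similar genes can trade reads in such estimates. They also deposited a normalized signal (TMM-scaled CPM, judged by its name and numbers). Each value came out as a whole number of reads (100%, tolerance 0.02), and edgeR on those reads called 130 genes, as on the counts. Here expected counts were rounded, and log2 CPM was computed with TMM factors of 0.965 to 1.067 and a prior count of 2 (edgeR 4.0.16, R 4.3.3). The oxygen test took genes that reached 1 CPM in 2 or more of the 4 libraries of day 1 and day 10, with an adjusted threshold of 0.05. It gave 117 genes that rose and 13 that fell, beside 1593 genes with unadjusted p below 0.05. The interval of the chronic minus acute contrast is a normal approximation from Poisson counts. Alternatives were library totals, DESeq2 1.42.0 size factors, log2(deposited value + 1), a prior count of 0.5, other filters, DESeq2, limma 3.58.1 (voom) and fits without a library. Those last fits also had no day term. Scripts were tested on simulated data. Named genes were all members, up to 4 genes per list by chronic difference (at least 5 CPM) with those past the oxygen test, and 3 nearest genes per member (root mean square difference of centred log2 CPM), of which 1 is not reported here. Gene positions, lengths and overlaps are from GENCODE v29 (GRCh38), promoter sequences from RefSeq. The members and lists were chosen with earlier results of these data known.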

Additional observations from a re-analysis of the deposited data

How the results depend on the processing

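Without a filter on low counts, PFKFB1 (at most 4 counts) entered, and the number of members past 2-fold became 2 after 1 day, 1 between day 10 and day 1 at 20% O2 and 1 in the chronic minus acute contrast. The other settings kept the number of members past 2-fold within 1.5 times in all 7 comparisons. Members past the oxygen test numbered 0 without the day term and 0 to 2 when 1 library was left out, and 1 in each other setting, including the whole reads recovered from the normalized table and the reoxygenated library added at 20% O2, both chosen after seeing the data. Of all genes, 0 were called without the day term (462 with unadjusted p under 0.05) or without either 20% O2 library in edgeR. DESeq2 gave 47 that rose and 2 that fell, limma-voom 202 and 22, library totals 25 and 2, DESeq2 size factors 75 and 6, no filter 237 and 44, the 5 CPM filter 28 and 1, the reoxygenated library added 60 and 1, and, with a 1% O2 library left out, 13 and 0 (day 10) and 2062 and 2251 (day 1). Per principal transcript length the share of PFKP was 68.4%, 68.1%, 65.3%, 69.5% and 66.9% in the order 20% and 1% O2 of day 1, 20% and 1% O2 of day 10 and reoxygenated, and that of PFKFB3 was 63.9%, 63.2% and 53.2% in the 3 libraries at 20% O2. Per exon union, chosen after seeing the data, PFKFB3 held 63.0%, 62.2% and 52.5% there. Signs flipped with scaling for PFKFB3 and PFKL between day 10 and day 1 at 1% O2, for PFKL in the chronic minus acute contrast, and for PFKL and PFKP between reoxygenated cells and the 20% O2 library of day 10, with values from −0.10 to 0.13. The labels give no replicate numbers, so no fit with a replicate block was made; the day term is what sets 1% against 20% O2 within each day. Depth limits PFKFB1, and 1 library per condition limits every pairwise difference.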
